A study of Macaca mulatta with 252 samples.

Results

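Kinesins, dyneins, tubulins and stathmins were examined across the neocortex, hippocampus and visual thalamus of adult rhesus macaques. The set comprised every gene whose symbol in the probe annotation begins with KIF, KLC, DYNC, DYNL, TUBA, TUBB, TUBG or STMN and belongs to the named motor, tubulin or stathmin families. It held 59 of the 14133 genes represented by a probe set with a single symbol. Members were taken by symbol, and each was read from its probe set with the highest mean, of 105 probe sets in all.

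The study measured total RNA from separately collected brain regions of 6 animals, 3 males (A, B and C) and 3 females (D, E and F), on Affymetrix rhesus expression arrays. Arrays fell into 57 region groups, of which 54 held 4 animals and 3 held 3 animals. The 10 cortical areas were divided by layer: anterior cingulate gyrus (ACG), orbitofrontal cortex (OFC) and primary motor cortex (M1) into layers 2, 3, 5 and 6; dorsolateral prefrontal cortex (DLPFC), primary somatosensory (S1), primary auditory (A1), secondary visual (V2), middle temporal (MT) and temporal (TE) areas into layers 2 to 6; and primary visual cortex (V1) into 8 layers with a divided layer 4. The hippocampus gave 4 groups, the dentate gyrus (DG) beside CA1, CA2 and CA3, and the 3 groups of the dorsal lateral geniculate nucleus (LGN) were its magnocellular, parvocellular and koniocellular divisions. Groups did not all hold the same animals, since ACG held male B and no male C, OFC and DLPFC held male B and no male A, and MT held female F and no female D. The groups are labelled by region and sex, no genotype, strain or treatment was named, and ages beyond adult were not given in the sources used here. Animals contributed unequally: 46 arrays came from male A, 13 from male B, 53 from male C, 52 from female D, 56 from female E and 5 from female F.

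Motor proteins move cargo along microtubules, which are polymers of alpha and beta tubulin. Most kinesins walk outward along the axon towards the microtubule plus ends, cytoplasmic dynein 1 carries cargo back towards the cell body, and dynein 2 works inside cilia. Gamma tubulin and its ring complex start new microtubules, and stathmins bind tubulin dimers and promote disassembly. Neurons with long axons depend on this machinery, and in people mutations of genes such as KIF5A and DYNC1H1 cause nerve and motor neuron disease.

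The medians of single arrays ran from 4.72 to 4.995 (log2 intensity), and each array correlated with the others of its group at a median r of 0.983. RNA was amplified in 3 batches, and which array was in which is not given in the sources used here, so batch and region cannot be told apart in any result that follows. Leaving out V1, whose arrays stood apart in their polyadenylated spike-in controls, moved no count of called members by more than 1.5 times where run. It was run over all regions, over areas, for deep against upper layers, and for hippocampus and LGN against neocortex. Other comparisons that hold V1, such as those of ACG, M1 and visual against frontal areas, were not rerun without it. Some cell type markers differed between the labelled regions. SLC17A7, the cortical vesicular glutamate transporter, differed by -3.23 (log2) between LGN and neocortex, and NEUROD6, of pyramidal neurons, by -5.43 between DG and the CA fields. MBP, of myelin, differed by 1.83 between deep and upper cortical layers, whereas CNP, another myelin gene, did not pass there. In such bulk tissue, fewer cells of a type and less RNA per cell cannot be told apart. The number of animals limits the precision of every value below. P-values rest on the spread left after each animal's own offset was fitted, pooled over the regions of a comparison. The comparison of males with females fitted no such offset.

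Of the 59 members, 43 had a mean level above the median of all probe sets (4.76) and entered the main tests, and 16 did not. Just inside that threshold was DYNC1I2, at 4.83. Just outside it were KIF3A at 4.63 and KIF12 at 4.61. Those below it were KIF3A, KIF12, KIF13A, TUBB1, KIF4A, KIF2C, KIF26B, KIF23, KIF19, KIF24, KLC1, KIF16B, TUBAL3, DYNC1H1, DYNLT5 and KIF18A. They include KIF3A, of the heterotrimeric kinesin-2 motor, and DYNC1H1, the heavy chain of cytoplasmic dynein 1, so a low reading on these probe sets was not taken to show that a gene is silent. By role, all 3 kinesin-1 heavy chains, all 3 stathmins and all 4 genes of gamma tubulin and its ring complex passed, against 3 of 7 mitotic kinesins and 1 of 2 alpha tubulins. Because probe sets differ in how brightly they bind, levels are compared below only within a gene.

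Region accounted for a median 59.0% of the sum of squares of the tested members, against 52.9% over all tested genes. The widest spread between group means belonged to KIF27, which ran over 3.66 log2 units, followed by STMN2 (2.49), TUBB3 (2.48) and KIF5A (2.11). TUBGCP4 ran over at least 2.19, counted from its highest group mean down to the threshold, as its mean of 4.38 in layer 4B of V1 lay under it. The median range was 1.36 for members and 1.25 for all tested genes. Of the 43 members, 43 differed between the 57 groups in a limma F test at adjusted p under 0.05, which 92.6% of all tested genes did. With a range of at least 1 in addition, 35 were called, against 68.2% of all genes.

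**Figure D1:**
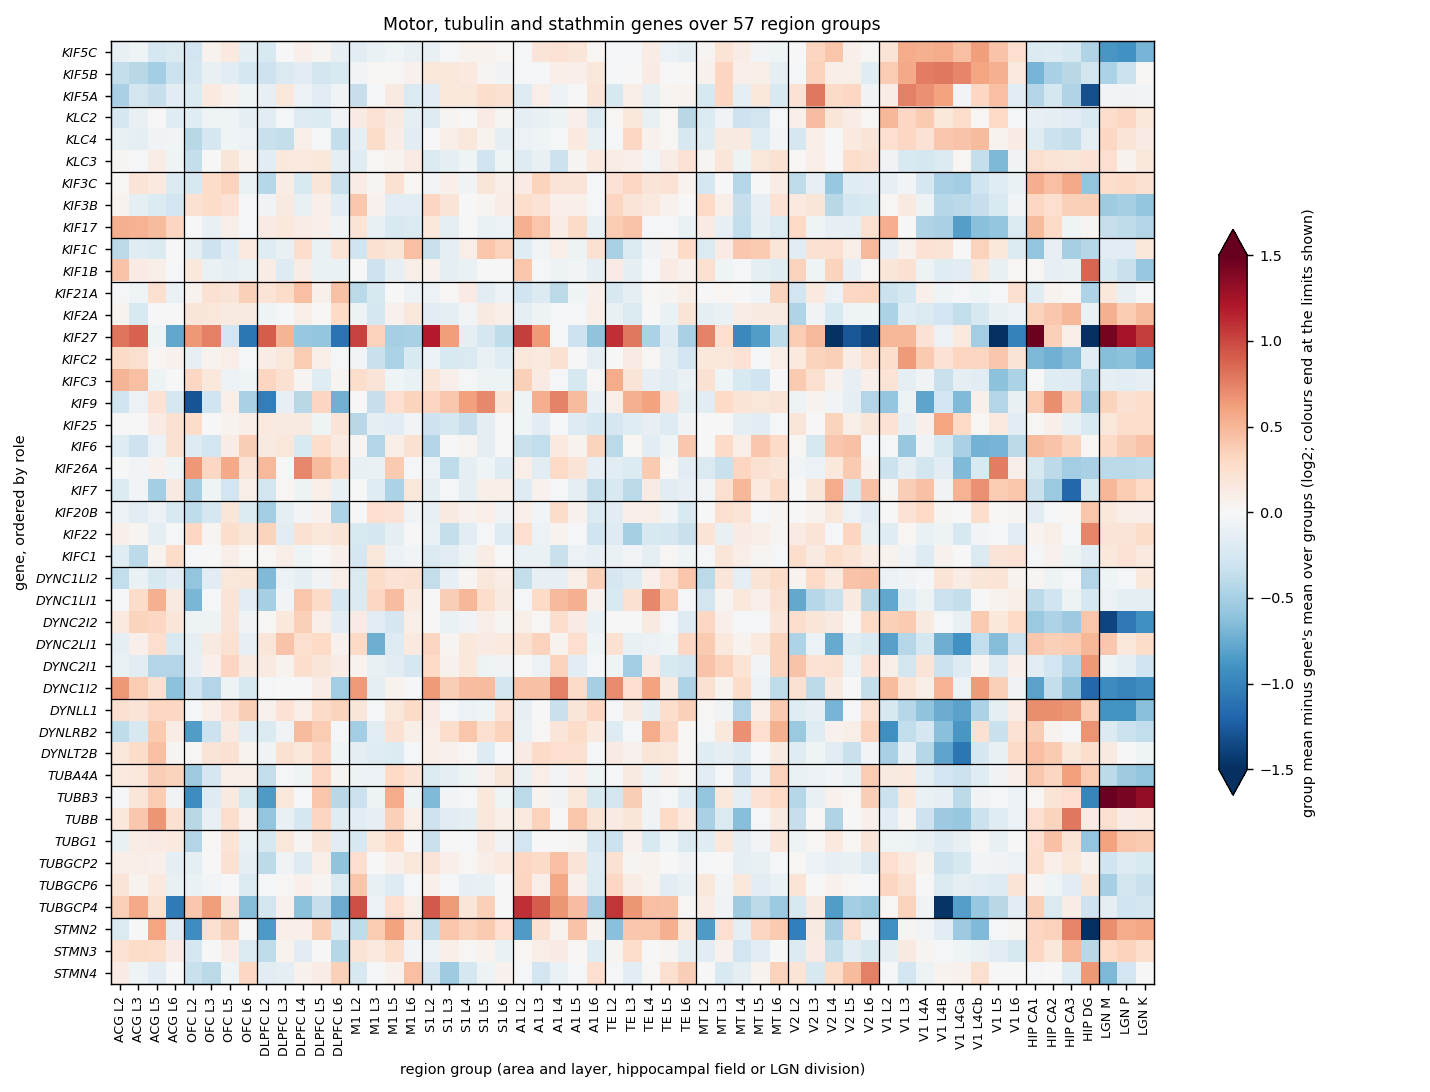
Mean log2 level of each tested member in each of the 57 region groups, shown in colour as the difference from that gene's own mean over groups (log2, colours ending at -1.5 and 1.5), with genes ordered by role. KIF27 and STMN2 have their lowest values in the dentate gyrus, and TUBB3 has its highest in the LGN.

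KIF27, a kinesin of the KIF7 family best known for its part in motile cilia, had the most regional pattern of the members, with 92.9% of its sum of squares between regions. Its mean was 10.13 ± 0.18 (SD, n = 4) in CA1, 10.10 in the magnocellular and 9.91 in the parvocellular LGN, 9.86 in layer 2 of S1 and 9.76 in layer 2 of TE. At the other end stood layer 4 of V2 at 7.18, layer 5 of V1 at 7.03 and DG at 6.47 ± 0.22. The neighbours at the top of this order differed by less than their spread, whereas no DG array reached the level of any CA array. The other probe set of KIF27 followed the same pattern across the 57 group means (r = 0.93).

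Cortical layers were compared in the 6 areas with undivided layers 2 to 6, with 1 value per animal and layer for males A and C and females D and E. Each animal's value is a mean over the areas it had in full, without DLPFC and A1 for male A and without MT for female D. The tests used values centred per animal and area, whereas the levels printed below are not centred. Layers differed for 37 of 43 members, against 62.4% of all genes, and for 2, KIF27 and STMN2, with a range of at least 1 (6.61% of all genes). KIF27 separated layers 2 and 3 from the rest, STMN2 and TUBB3 were low in layer 2, DYNLL1 was low in layer 4, and DYNC1I2 was low in layer 6. Leaving out 1 animal at a time gave 26 to 32 members.

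In layer 2 the levels of KIF27 were 9.44, 9.60, 9.48 and 9.74 in males A and C and females D and E, in that order, which is kept below. In layer 3 they were 9.31, 9.23, 9.34 and 9.27, and in layer 4 they were 7.81, 8.06, 8.25 and 8.07. Layer 5 gave 7.99, 7.93, 8.21 and 8.21, and layer 6 gave 8.06, 7.86, 7.83 and 8.01. Every layer 2 value thus exceeded every layer 3 value, and both upper layers stood above layers 4, 5 and 6 without overlap. Layer 2 exceeded the mean of the other layers by 1.23 ± 0.07 (SE, log2; adjusted p = 1.97e-11, limma), in 4 of 4 animals.

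STMN2, a stathmin of growing and regenerating axons, moved the other way at the top of the cortex. Its levels were 11.04, 11.51, 11.11 and 11.55 in layer 2 and 12.43, 12.45, 12.39 and 12.41 in layer 5. Every layer 2 value lay below every value of the deeper layers, of which the lowest was 12.02, and layer 2 was 0.94 ± 0.07 below their mean (log2 difference -0.94; adjusted p = 4.31e-09). The neuron-specific beta tubulin TUBB3 gave 10.08, 10.38, 10.09 and 10.20 in layer 2 and 10.78, 10.86, 10.59 and 10.89 in layer 5. Layer 2 held the lowest value of TUBB3 in each of the 4 animals, with a log2 difference from the other layers of -0.51 ± 0.05 (adjusted p = 3.15e-07).

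In layer 2 as a whole, 10 of 43 members were higher (24.2% of all genes) and 17 lower (20.6%) than in the other layers. The lower ones included both tested beta tubulins and the tested alpha tubulin, TUBA4A (-0.15), as well as the dynein light intermediate chains DYNC1LI1 (-0.44 ± 0.05) and DYNC1LI2 (-0.37), which link the motor to adaptors, and KIF1C (-0.46 ± 0.05), a fast vesicle motor. Without female E, TUBB (-0.16) and TUBA4A (-0.14) were no longer called. The higher ones included 3 of the 4 genes of gamma tubulin and its ring complex, TUBGCP4 (0.54 ± 0.07), TUBGCP6 (0.20) and TUBGCP2 (0.14), while TUBG1, gamma tubulin itself, was lower (-0.22). With the mean of all probe sets of a gene TUBGCP6 (0.02) and TUBGCP2 (0.03) lost their calls, TUBGCP2 lost its call without any 1 of the 4 animals, and its next probe set gave the other direction (-0.08, not called). DYNC1I2, an intermediate chain of cytoplasmic dynein, was higher (0.39 ± 0.06), as were 2 of 3 tested kinesin-2 motors, KIF17 (0.27) and KIF3B (0.25). The median over members was -0.07, against -0.002 over all genes.

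Markers of myelinated axons moved with these layer differences. Of 9 listed myelin genes 3 were measured, and 2 were lower in layer 2: UGT8 by -2.12 and MBP by -2.02 (log2), while CNP did not pass (0.05; adjusted p = 0.287). The mean level of the 3 ran from 9.45 to 10.07 in the layer 2 groups and from 10.08 to 11.74 in layers 3 to 6 of the same areas. NEFH, the only one of 4 listed neurofilament genes measured, was lower in layer 2 by -1.78. Their part in the layer 2 values of STMN2, TUBB3 and the other members was not tested.

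The other layers each had their own members. In layer 3, 12 members were higher (16.1% of all genes) and 4 lower (10.2%); beside KIF27 (0.88) the higher ones included TUBGCP4 (0.40) and STMN2 (0.31), and STMN4, a stathmin of neurons, was lower (-0.40). This count rests in part on single animals, since 16 members were called with all animals, 10 without female E and 11 without male A or male C. In layer 4, 8 members were higher (13.6%) and 9 lower (15.6%). DYNLL1, the light chain that dimerises dynein and many other proteins, was the clearest of the lower ones there after KIF27, at 12.06, 12.17, 12.24 and 12.14 in layer 4 against 12.73, 12.71, 12.70 and 12.77 in layer 6. Layer 4 values of DYNLL1 lay below those of every other layer, by -0.38 ± 0.04 on average (adjusted p = 1.98e-06). In place of 17 members, 9 were called in layer 4 without female E and 11 without male A.

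In layer 5, where the cells of origin of long subcortical projections lie, 6 members were higher (11.4% of all genes) and 4 lower (10.3%). The higher ones were led by STMN2 (0.45 ± 0.07), TUBB, a broadly used beta tubulin (0.27 ± 0.05), and DYNC1LI1 (0.25 ± 0.05), with TUBB3 at 0.23 ± 0.05. In layer 6, 8 were higher (15.1%) and 10 lower (23.5%). DYNC1I2 gave 4.11, 4.52, 4.53 and 4.51 in layer 6 and 5.21, 5.27, 5.35 and 5.33 in layer 2. Its layer 6 values were the lowest of all layers and sat below the threshold of 4.76, so that the size of this difference has only a lower bound: the mean of the other layers, 5.12, lay at least 0.35 above (log2; adjusted p = 7.8e-08). STMN4 (0.39), KIF1C (0.34) and DYNLL1 (0.34) were the members highest in layer 6 by size of difference.

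**Figure D2:**
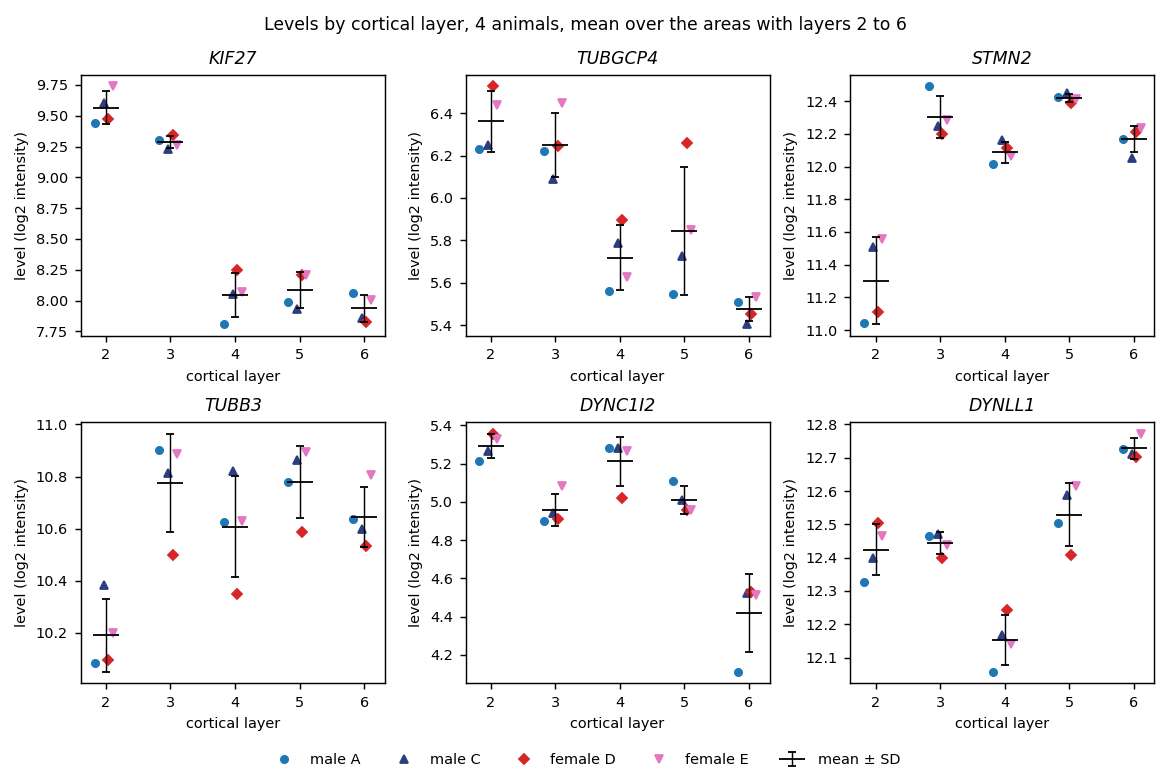
Log2 level of 6 members by cortical layer, each point 1 animal averaged over those areas with undivided layers 2 to 6 that it had in full, with mean and SD over 4 animals. KIF27 drops between layers 3 and 4, STMN2 and TUBB3 are low in layer 2, DYNLL1 is low in layer 4, and DYNC1I2 is low in layer 6.

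Deep layers (5 and 6) were then compared with upper layers (2 and 3) over all 10 areas in 5 animals. Of 43 members 16 were higher in deep layers (20.2% of all genes) and 8 were lower (18.3%). The higher ones took in both tested beta tubulins, TUBB3 (0.30 ± 0.06) and TUBB (0.27 ± 0.06), the alpha tubulin TUBA4A (0.24), the stathmins STMN2 (0.47 ± 0.05) and STMN4 (0.35), and the dynein chains DYNLRB2 (0.43 ± 0.06), DYNC1LI2 (0.35 ± 0.04), DYNC1LI1 (0.30) and DYNLL1 (0.22). The next probe sets of TUBB (0.16) and DYNC1LI1 (0.11) did not pass. None of the kinesin-1 heavy chains (KIF5A, KIF5B, KIF5C) and none of the tested kinesin light chains passed this test, with medians of -0.04 and 0.04. Among the lower ones were KIF27 (-1.42 ± 0.05, adjusted p = 2.56e-13), TUBGCP4 (-0.59 ± 0.07), the minus-end motor KIFC3 (-0.37 ± 0.03) and DYNC1I2, by at least 0.30, as its deep mean of 4.75 lay just under the threshold.

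The differences of 6 of these members were followed by area. Over 38 pairs of animal and area, KIF27 and KIFC3 were lower in the deep layers of 38, and TUBGCP4 in 37. STMN2 was higher in the deep layers of 36 pairs, DYNC1LI2 in 35 and DYNLRB2 in 33. By area, the deep-minus-upper difference of KIF27 ran from -1.11 in MT to -1.82 in V1, with V2 at -1.77. In ACG, DYNC1LI2 was at 0.033 ± 0.16 (SD, n = 4), higher in 2 animals and lower in 2, and DYNLRB2 was at 0.11 ± 0.51 (SD, n = 4) in S1. MBP (1.83), UGT8 (2.05) and NEFH (0.66) were higher in deep layers too, whereas CNP did not pass (-0.05; adjusted p = 0.310), and the mean of the 3 myelin genes was 8.82 to 11.34 in upper and 10.25 to 11.87 in deep groups, overlapping ranges. Their part in the members' differences was not tested.

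Areas were compared on the mean of layers 2, 3, 5 and 6 in each animal, since layer 4 is lacking or divided in some. They differed for 35 of 43 members, against 76.8% of all genes, and for 0 members with a range of at least 1 (9.2% of all genes). Areas were also split by the spread of their Cre spike-in controls, which are other probe sets than the polyadenylated controls. Among the areas with narrowly spread Cre controls (ACG, M1, S1, A1, TE and V1, SD 0.07 to 0.12) 22 members were called. Among those with widely spread ones (OFC, DLPFC, MT and V2, SD 0.19 to 0.28) 4 were. The sets differ in the number and kind of areas, so an effect of control spread cannot be told apart. The share of all genes called in each set was not counted. The kinesin-1 heavy chains KIF5A, KIF5B and KIF5C carry mitochondria and membrane vesicles along axons. All 3 were higher in V1 than in the mean of the other areas and lower in ACG, at the other end of the front-to-back axis. Over the 57 group means KIF5B followed KIF5C (r = 0.75) and KIF5A (r = 0.67), in points that share animals.

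KIF5C gave 12.34, 12.44, 12.45 and 12.53 in V1 of males A and C and females D and E. In ACG of males A and B and females D and E it gave 11.82, 11.93, 11.94 and 11.97. All V1 values lay above those of each other area, where the highest was 12.30 in V2, and the V1 difference was 0.39 ± 0.05 (adjusted p = 2.25e-07). KIF5B gave 11.87, 12.02, 12.07 and 12.14 in V1 and 11.15, 11.21, 11.31 and 11.22 in ACG, with a V1 difference of 0.47 ± 0.06 (adjusted p = 2.72e-07). V1 and ACG did not overlap for KIF5B, but an S1 value reached 12.02, within the V1 range. KIF5A gave 8.69, 8.60, 8.13 and 8.75 in V1 and 8.01, 7.95, 7.87 and 7.90 in ACG.

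The V1 difference of KIF5A was smaller in its support, at 0.29 ± 0.09 (adjusted p = 0.0118), higher in 3 of 4 animals, and it was no longer called without male A, male C or female E (0.23 to 0.27, adjusted p = 0.059 to 0.095). Probe sets of KIF5B disagreed, since the next one gave -0.01 for V1 (adjusted p = 0.951), whereas that of KIF5C gave 0.38 (adjusted p = 0.0064). Arrays of V1 also stood apart in the polyadenylated spike-in controls, whose mean level was 9.99 ± 0.57 in V1 and 9.83 ± 0.67 in V2 against 8.47 to 9.33 in other areas. With that level as a covariate, 11 members were called in V1 in place of 20, and KIF5A was at 0.41 (adjusted p = 0.084). The share of all genes called with the covariate was not counted, so a loss of calls over genes in general cannot be told apart. Between visual (V1 and V2) and frontal areas (ACG, OFC and DLPFC), which share the V1 and ACG samples with the contrasts above, KIF5B differed by 0.56 ± 0.06, KIF5A by 0.43 ± 0.09 and KIF5C by 0.35 ± 0.05, in 4 of 4 animals each. Each animal was counted on the areas it had. Of the frontal areas male A had only ACG, and male C had OFC and DLPFC without ACG. The ACG differences were -0.48 ± 0.06 for KIF5B, -0.40 ± 0.10 for KIF5A and -0.20 ± 0.05 for KIF5C, of which KIF5A was not called without female E (-0.32).

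**Figure D3:**
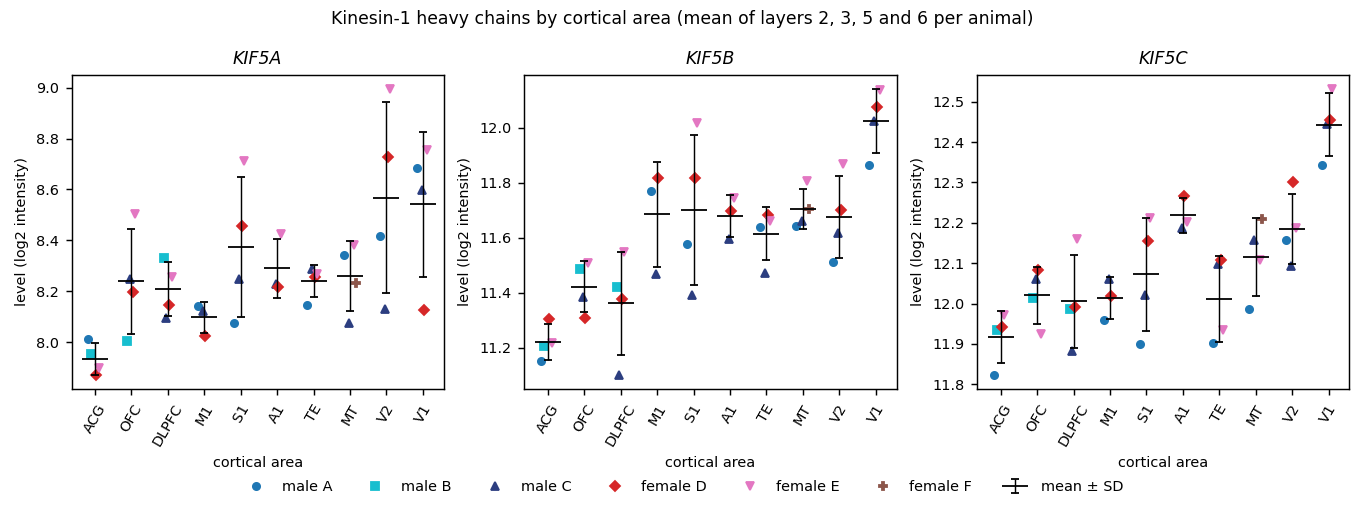
Log2 levels of KIF5A, KIF5B and KIF5C by cortical area, each point 1 animal averaged over layers 2, 3, 5 and 6, with mean and SD. V1 holds the 4 highest KIF5C values, between 12.34 and 12.53, and ACG values of all 3 genes are low.

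Against the other areas, V1 as a whole had 8 of 43 members at a higher level (14.3% of all genes) and 12 at a lower one (30.4%). Beside the heavy chains, 2 of 3 tested kinesin light chains, the cargo-binding partners of KIF5, were higher, KLC2 (0.31 ± 0.06) and KLC4 (0.27 ± 0.07), while KLC3 was lower (-0.26 ± 0.06). Without female D neither KLC4 (0.18) nor KLC3 (-0.17) was called. KIF7, a hedgehog pathway regulator at the tip of cilia, was higher by 0.40 ± 0.09, and KIFC2, a minus-end motor of neurons, by 0.38 ± 0.06. DYNC2LI1, a dynein 2 subunit of cilia, gave 6.17, 6.26, 6.22 and 6.41 in V1, below every other area's values, where area means ran from 6.58 to 7.07; its difference was -0.61 ± 0.09 (adjusted p = 1.32e-06). KIF27 (-0.49 ± 0.07) and KIF6 (-0.43 ± 0.10) were also lower in V1, neither of them called with the spike-in covariate (-0.32 and -0.45). Microglial genes were lower there too, 4 of 5 tested with P2RY12 at -1.60, as were 4 of 5 endothelial genes, and PVALB, of fast-spiking interneurons, was higher by 1.92; their part in the members' V1 values was not tested.

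Visual areas held 10 higher (15.8% of all genes) and 8 lower members (27%) than frontal areas, the lower ones led by KIF27 (-0.46), DYNC2LI1 (-0.37) and DYNLL1 (-0.31). With the spike-in covariate 7 members were called in place of 18, and KIF27 was not among them (-0.27). The share of all genes called with it was not counted there either. In ACG 9 members stood higher (18.7%) and 7 lower (13.2%); 10 members were called without female E in place of 16. KIF17, a kinesin-2 that carries NMDA receptor subunits into dendrites, was the highest by difference in ACG, with 7.09, 7.04, 6.56 and 6.84 in males A and B and females D and E, and 0.47 ± 0.06 above the other areas (adjusted p = 4.45e-07). TUBB (0.39 ± 0.08) and STMN3 (0.26) were higher in ACG as well, though TUBB was not called on its next probe set (0.36) and STMN3 gave -0.28 on its own.

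M1, which holds the giant pyramidal neurons of the corticospinal tract, could be compared in 3 animals, males A and C and female D. It had 3 higher members (11.5% of all genes), TUBGCP4 (0.49 ± 0.11), STMN2 (0.31) and DYNC1LI2 (0.23), and 3 lower ones (3.57%), KIFC2 (-0.40 ± 0.07), KIF25 (-0.26) and KIF17 (-0.20). In place of 6 members, 2 were called without male A, 3 without male C and 4 without female D. Without female E, who lacked layer 2 of M1 and entered only through the other areas, 3 were called. KIFC2 was called without male A, without male C and without female E. KIF5A, KIF5B and KIF5C did not pass the test in M1.

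Within V1 the 8 layers, including 4A, 4B, 4Ca and 4Cb, differed for 16 of the 45 members above the threshold there (25.8% of all genes), and for 5 with a range of at least 1 (14.7%). These 5 were KIF27 (2.13 between layers 3 and 5), TUBGCP4 (at least 1.44 between 3 and 4B, where its mean lay under the threshold), KIF17 (1.38 between 2 and 4Ca), DYNLT2B, a dynein 2 light chain (1.37 between 6 and 4Ca), and DYNLRB2, a roadblock-type dynein light chain (1.15 between 4Cb and 2). In place of 16 members, 9 were called without male A, male C or female E, and 8 without female D.

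KIF27 gave 9.36, 8.75, 9.03 and 9.48 in V1 layer 2 and 8.98, 9.11, 9.11 and 9.43 in layer 3. It gave 8.25, 7.81, 8.01 and 8.52 in layer 4Cb, 6.42, 7.33, 7.38 and 6.97 in layer 5, and 7.60, 7.56, 7.70 and 7.73 in layer 6. The layer 5 values lay below all those of layer 6. In the areas with an undivided layer 4, layers 5 and 6 overlapped, but those values are means over several areas, whereas the V1 values are single arrays. The difference between V1 and those areas was not tested. TUBGCP4 gave 4.37, 3.89, 4.79 and 4.49 in layer 4B and 6.19, 6.59, 6.45 and 5.59 in layer 3, without overlap.

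Layer 4C, which receives most of the thalamic input, was compared with layers 2, 3, 5 and 6 of V1. KIF5B was the 1 member higher (0.26 ± 0.07; 7.24% of all genes), but was not called without female D (0.20), and 9 members were lower (11%). The lower ones were KIF17 (-0.67 ± 0.13), TUBGCP4 (-0.64 ± 0.16), DYNLT2B (-0.56), DYNLL1 (-0.46 ± 0.06), STMN2 (-0.39), TUBB (-0.35), KIF3B (-0.34), TUBA4A (-0.33) and KIF3C (-0.30). They thus took in an alpha and a beta tubulin and each of the 3 tested kinesin-2 motors.

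In the hippocampus 27 of 41 tested members differed between CA1, CA2, CA3 and DG (64.1% of all genes), and 8 with a range of at least 1 (19.1%). Granule cells of DG have short unmyelinated mossy fibres, while CA neurons are pyramidal. DG held 16 lower members (29.8% of all genes) and 10 higher ones (30.5%) than the mean of the CA fields, and 5 lower (4.82%) and 0 higher (5.42%) with a change of at least 1. Those 5 were KIF27, STMN2, TUBB3, KIF3C and KIF9.

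KIF27 gave 10.24, 10.13, 9.87 and 10.28 in CA1, 8.55, 9.17, 9.19 and 9.17 in CA2, 8.92, 8.51, 8.67 and 8.92 in CA3 and 6.19, 6.59, 6.69 and 6.40 in DG. CA1 stood above the other fields and DG below them, without overlap, and DG was lower by 7.13-fold (log2 difference -2.83 ± 0.13; adjusted p = 2.43e-10). STMN2 gave 12.59, 12.36, 12.29 and 12.30 in CA1, 12.15, 12.69, 12.19 and 12.59 in CA2, 12.89, 12.92, 12.66 and 12.71 in CA3 and 9.78, 10.99, 10.28 and 10.18 in DG. No DG value of STMN2 came near the CA values, and the fold was 4.66 (-2.22 ± 0.14; adjusted p = 7.72e-09).

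TUBB3 was likewise lower in DG, at 9.53, 10.12, 9.66 and 9.41 against 10.57 to 11.16 over the CA arrays, a log2 difference of -1.16 ± 0.11 (adjusted p = 5.02e-07). KIF3C, a neuronal kinesin-2, was at 9.61, 9.75, 9.71 and 9.99 in DG and at 10.52 to 11.11 in the CA fields, a difference of -1.11 ± 0.08 (adjusted p = 2.45e-08). KIF9, a kinesin of motile cilia and flagella, was at 5.88, 6.24, 6.31 and 6.997 in DG, where female E came close to the lowest CA value of 7.03 (-1.01 ± 0.15; adjusted p = 5.07e-05). Its next probe set gave -0.96. Groups did not overlap for any of the 3. Gamma tubulin, TUBG1, was at 8.73, 8.99, 8.96 and 8.73 in DG and 9.52 to 10.05 in CA (-0.89 ± 0.07), and STMN3 was lower as well (-0.75).

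Of the kinesin-1 heavy chains 1 was clearly lower in DG. KIF5A, a neuron-specific heavy chain, was at 6.88, 7.08, 6.999 and 6.76 in DG and at 7.69 to 8.34 in CA (-0.94 ± 0.09; adjusted p = 7.36e-07). KIF5B, the broadly used one, was higher in DG by 0.25 ± 0.09 (adjusted p = 0.0333) on its chosen probe set and lower by -0.51 on the next (adjusted p = 0.00139), and it was not called without male C, female D or female E (0.21 to 0.24), so its direction is not settled. KIF5C did not pass the test (-0.24 ± 0.10; adjusted p = 0.057). The light chains KLC2 (-0.10), KLC3 (0.01) and KLC4 (0.14) did not pass either.

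Higher in DG were the dynein 2 intermediate chains, which serve transport in cilia. DYNC2I2 was at 7.89, 7.94, 7.74 and 7.37 in DG and at 6.38 to 7.26 in CA (0.94 ± 0.09; adjusted p = 7.86e-07), and DYNC2I1 was at 6.16, 7.08, 6.42 and 6.13 against 5.17 to 5.85 (0.95 ± 0.11; adjusted p = 4.31e-06). All DG values of both lay above all CA values, while DYNC2LI1, of the same motor, did not pass (0.11 ± 0.14; adjusted p = 0.487). Of 3 tested mitotic kinesins 2 were higher, the chromosome-binding KIF22 (0.69 ± 0.09) and KIF20B (0.47 ± 0.08). Of 4 tested proliferation genes, PCNA was higher in DG (1.23) and CCNB1 (-0.46) and AURKB (-0.21) were lower. STMN4 was higher on average (0.72 ± 0.11), although 1 CA2 array, of female D at 10.77, lay within the DG range of 10.69 to 10.84. KIF1B, a motor of mitochondria and synaptic vesicle precursors, gave 0.94 ± 0.09 on its chosen probe set and -0.347 on the next (adjusted p = 0.0335), so its direction depends on the probe set.

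NEFH (-2.30), MBP (-2.14) and UGT8 (-2.77) were lower in DG too, 2 of the 3 tested myelin genes, CNP not passing (0.21; adjusted p = 0.0547), and the mean level of the myelin genes was 8.79 in DG and 9.43 to 10.95 in the CA groups. All 5 tested microglial genes and 4 of 5 endothelial genes were lower in DG. Their part in the members' DG values was not tested.

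The other parts of the transport machinery, from lists of related genes, also differed between DG and the CA fields. The mitochondrial adaptor TRAK2, which links kinesin-1 to mitochondria, was higher in DG by 2.88 ± 0.10, while the dynein adaptor BICDL1 was lower by -2.65 ± 0.20 and the dynein adaptor HOOK1 was higher by 1.41 ± 0.12. Against 30.5% of all genes higher and 29.8% lower, 4 of 14 kinesin adaptors were higher and 4 lower, and 3 of 7 dynein regulators were higher and 2 lower. Among 14 genes of tubulin folding and modification 1 was higher and 6 were lower, led by the tubulin ligases TTLL6 (-2.38 ± 0.12) and TTL (-1.28 ± 0.11). Dynactin had 0 higher and 2 lower of 7, microtubule-associated proteins 2 and 2 of 9, with DCX at -1.24, and plus-end and severing proteins 0 and 1 of 6. The median difference over all tested genes was -0.014, and list medians ran from -0.15 for tubulin folding and modification to 0.09 for dynein regulators.

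Whole structures were compared with 1 mean per structure in each of the 4 animals that had all 3; the 3 contrasts share these samples. In LGN 16 of 42 members were higher (30.9% of all genes) and 17 lower (32.2%) than in neocortex, with 2 higher (4.14%) and 1 lower (6.65%) at a change of at least 1. TUBB3 and KIF27 were the 2 higher, and DYNC2I2 the 1 lower.

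TUBB3 gave 12.23, 12.12, 12.005 and 11.999 in LGN, 10.67, 10.62, 10.40 and 10.68 in neocortex and 10.43, 10.65, 10.65 and 10.46 in the hippocampus. LGN stood far above both, which overlapped each other, by 2.82-fold over neocortex (1.50 ± 0.09; adjusted p = 3.4e-08) and by 1.54 ± 0.09 over the hippocampus (adjusted p = 1.76e-08). KIF27 gave 9.77, 9.87, 9.81 and 10.15 in LGN, 8.64, 8.62, 8.68 and 8.77 in neocortex and 8.47, 8.60, 8.61 and 8.69 in the hippocampus, so LGN was again apart (1.22 ± 0.06 over neocortex; adjusted p = 1.33e-08). DYNC2I2 gave 6.74, 6.25, 5.84 and 5.95 in LGN against 7.69, 7.50, 7.16 and 7.33 in neocortex (-1.23 ± 0.08; adjusted p = 8.32e-08), without overlap.

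DYNLL1 ordered the 3 structures. It gave 13.00, 13.16, 13.01 and 12.99 in the hippocampus, 12.48, 12.53, 12.53 and 12.55 in neocortex and 11.78, 11.62, 11.65 and 11.46 in LGN. None of these ranges overlapped, with differences of 0.52 ± 0.07 for hippocampus over neocortex (adjusted p = 0.000102) and -0.90 ± 0.07 for LGN against neocortex (adjusted p = 5.85e-07). Over the 57 group means DYNLL1 followed SLC17A7 (r = 0.83) and ran against PVALB (r = -0.81), in groups that share animals.

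Other members separated LGN from neocortex by less. STMN2 (0.64 ± 0.10) was higher, whereas STMN3 was higher on its chosen probe set (0.33) and lower on the next (-0.41; adjusted p = 0.000261). TUBG1 was higher (0.51) and the ring complex gene TUBGCP6 lower (-0.38). TUBGCP2 was lower on its chosen probe set (-0.25) and not called on the next, which gave the other direction (0.10); it also lost its call without male C, female D or female E (-0.19 to -0.26). TUBGCP4 was lower too (-0.35), but not against the neocortical areas with widely spread Cre spike-in controls (0.01). All 3 tested kinesin light chains were higher, KLC4 by 0.25, KLC2 by 0.24 and KLC3 by 0.18, though KLC3 lost its call without male A, male C or female D (0.13 to 0.20). The heavy chain KIF5C was lower (-0.84 ± 0.09), as was KIF5B (-0.26 ± 0.10), which lost its call without male C, female D or female E (-0.18 to -0.26), and KIF5A did not pass (-0.09; adjusted p = 0.363). KIF5C gave 11.43, 11.11, 11.22 and 11.28 in LGN and 12.01, 12.11, 12.15 and 12.14 in neocortex, apart in every animal, but its next probe set gave -0.20 and was not called (adjusted p = 0.103). KIF2A, which trims microtubule ends, was higher in LGN by 0.50 ± 0.06 on its chosen probe set and not called on the next (-0.09), and TUBA4A was lower (-0.51).

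NEFH was higher in LGN by 3.31 ± 0.12, and of the 3 tested myelin genes UGT8 (2.09) and MBP (1.05) were higher and CNP lower (-0.18); the mean myelin level was 11.47 to 11.95 in LGN groups and 8.82 to 11.87 in cortical groups. Over the 57 group means TUBB3 followed NEFH (r = 0.77), TUBG1 (r = 0.85) and STMN2 (r = 0.74). The part of these markers in the LGN values was not tested. Among related genes, BICDL1 (1.66), TRAK2 (1.31) and the microtubule-associated MAP9 (1.52) were higher in LGN, and DCLK1 (-2.15), TTLL6 (-1.59), SVBP (-1.41), CAPZA2 (-1.30), HOOK1 (-1.11) and TBCD (-1.07) lower. By list, against 30.9% of all genes higher and 32.2% lower, 3 of 14 tubulin folding and modification genes were higher and 6 lower, 2 of 8 dynein regulators higher and 4 lower, and 2 of 13 kinesin adaptors higher and 3 lower.

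**Figure D4:**
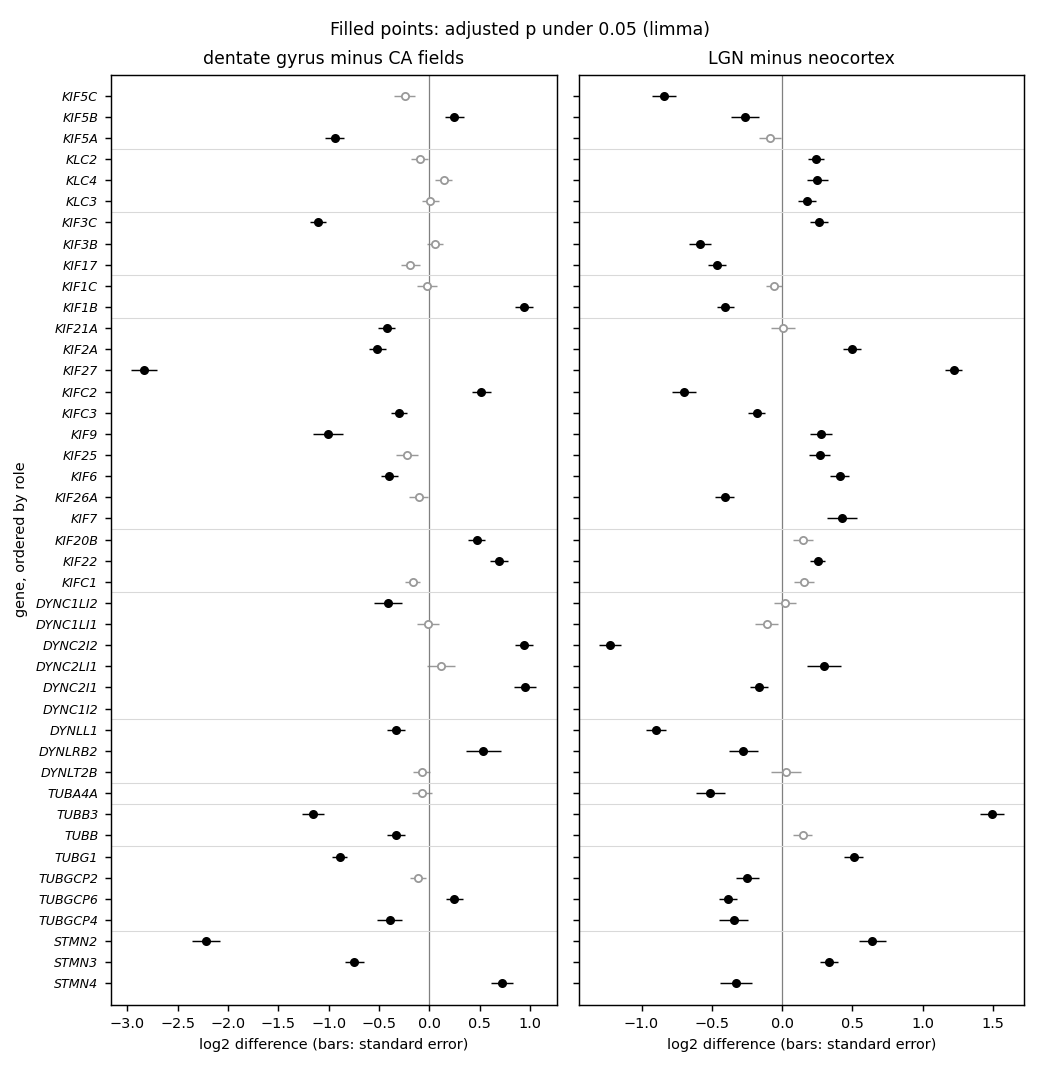
Log2 difference of each tested member, with its standard error, between DG and the CA fields (left) and between LGN and neocortex (right); filled points passed limma's test at adjusted p under 0.05. KIF27 lies at -2.83 on the left and 1.22 on the right, TUBB3 at -1.16 and 1.50, and DYNC2I2 at 0.94 and -1.23; DYNC1I2 was not tested in either.

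**Figure D5:**
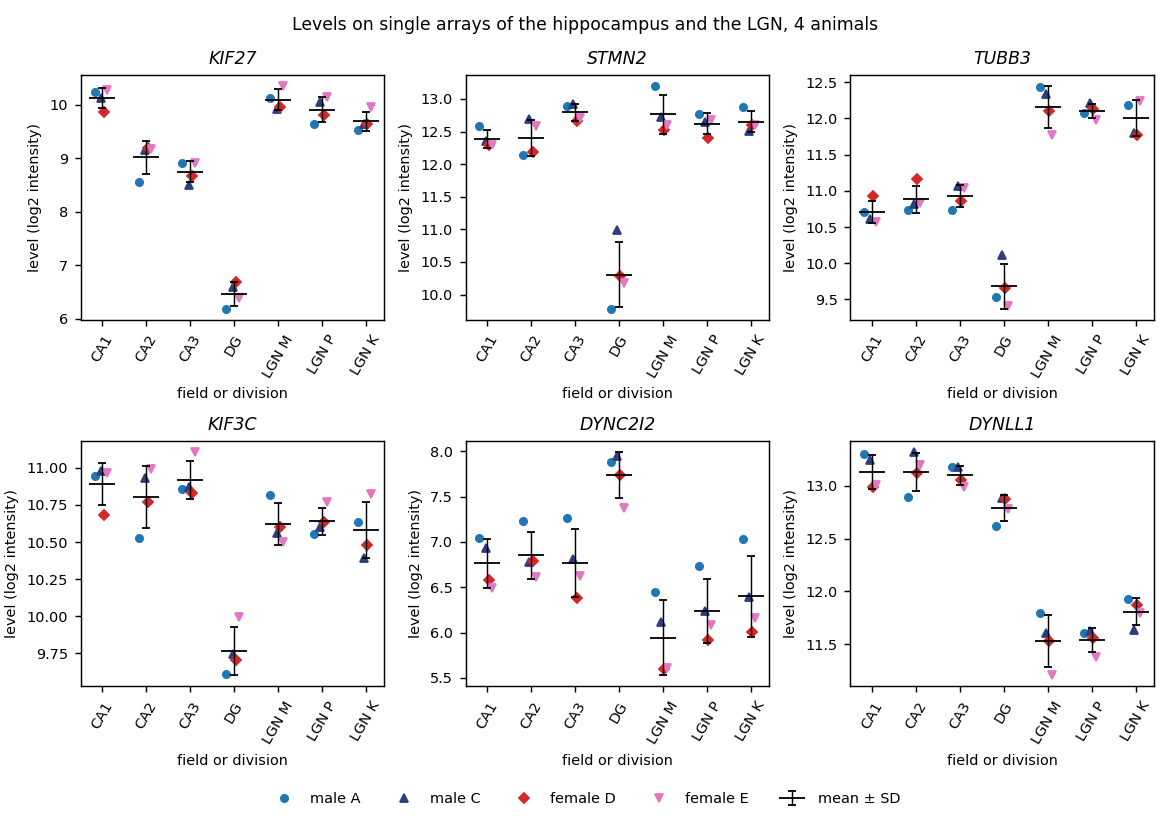
Log2 levels of 6 members in the hippocampal fields and LGN divisions, 1 point per animal with mean and SD. KIF27 runs from a mean of 10.13 in CA1 to 6.47 in DG, and TUBB3 values in the LGN divisions lie above those of the hippocampal fields.

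Between hippocampus and neocortex 13 of 42 members were higher in hippocampus (26.8% of all genes) and 12 lower (22.4%). All 3 kinesin-1 heavy chains were lower, KIF5A by -0.66 ± 0.08 (adjusted p = 3.58e-05), KIF5B by -0.47 ± 0.10 and KIF5C by -0.29 ± 0.09. The next probe sets of KIF5B (-0.18; adjusted p = 0.13) and KIF5C (0.25; adjusted p = 0.0521) did not pass, and KIF5C lost its call without female D or female E (-0.28 and -0.30). KIF5A gave 7.73, 7.67, 7.61 and 7.53 in the hippocampus and 8.26, 8.23, 8.22 and 8.47 in neocortex, without overlap. All 3 tested dynein light chains were higher, DYNLL1 (0.52), DYNLT2B (0.33) and DYNLRB2 (0.29), the latter 2 not called without male A, male C or female D (0.22 to 0.36), as were TUBA4A (0.43) and DYNC2LI1 (0.43). TUBB3 (-0.04; adjusted p = 0.707) and KIF27 (-0.09; adjusted p = 0.279) did not pass.

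LGN against hippocampus gave 13 higher (31.4% of all genes) and 13 lower members (35.4%), with 2 higher (6.41%) and 1 lower (7.95%) at a change of at least 1. The 2 were TUBB3 and KIF27 (1.31 ± 0.06) and the 1 was DYNLL1 (-1.41 ± 0.07, adjusted p = 6.78e-09). TUBA4A (-0.94) and KIF3B (-0.86) were lower by less. KIF7 was higher in LGN by at least 0.87 (adjusted p = 7.68e-06), its hippocampal mean of 4.67 lying under the threshold.

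Between the 3 LGN divisions 0 of 42 members passed limma's test (3.01% of all genes), with 5 at an unadjusted p under 0.05 (13.5% of all genes). DYNC2I2 came nearest, at adjusted p = 0.0579. Between magnocellular and parvocellular divisions, of large and small relay cells, 0 passed (0.896% of all genes), with 3 unadjusted (10.4% of all genes). For the koniocellular division against the others 0 passed (2.08%), with 7 unadjusted (10.3%) and KIF5B nearest at adjusted p = 0.0547. With 4 animals these p-values do not show that the divisions are alike.

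Males A and C and females D and E were compared on their means over shared region groups. By limma 0 of 43 members differed (0% of all genes), with 4 at an unadjusted p under 0.05 (7.05% of all genes) and the lowest adjusted p at 0.561, for DYNC2I2. Only 2 animals of each sex entered this comparison.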

How the data were processed

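RNA of 57 macaque brain region groups was hybridised to Affymetrix rhesus arrays after 2 amplification cycles from 5 ng of total RNA, per the labels' protocols. The authors deposited a table of log10 intensities per probe set and array, normalized by RMA within each amplification batch and then probe by probe on the whole brain controls common to the batches, per the file headers; a difference that follows batch membership may thus be altered in either direction. The log10 values were multiplied by 3.32 to give log2. The 27 control arrays (a whole brain pool and repeats of tissue samples) entered no comparison.

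Probe sets were named from the platform annotation, which gave 24969 of 52865 probe sets a single symbol and 361 several, of which 2 matched the family names and were left out. A gene was read from its probe set with the highest mean, and was tested in a comparison where its mean over that comparison's arrays exceeded the median of all probe sets (4.76 over all arrays). Each comparison was fitted over every tested gene in R 4.3.3 by limma 3.58.1, tables being read by data.table, version 1.17.8. The animal was a fixed block term, except in the comparison of males with females. Variances were moderated, and p-values were adjusted by Benjamini and Hochberg's method. A call is an adjusted p under 0.05, and separately with a log2 change or range of at least 1. Where the mean on the dimmer side of a difference lay under that threshold, the size is given as a lower bound, from the brighter mean to the threshold. Layers, areas and structures were averaged to 1 value per animal and unit first. The animal named in each label pairs the samples: deviations from the group means correlated at a median of 0.174 for arrays of the same animal (5367 pairs) and -0.0493 for different animals (19500 pairs). No array pair looked like a repeated hybridisation (highest r = 0.992). The fit was tested on simulated data.

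Members named are the largest changes at each threshold, the member of each role with the highest mean or widest range, and whole families; up to 4 genes are named from a related list. The members, roles and lists were chosen with earlier results of these data known. Alternatives were the mean of all probe sets, the next probe set, no filter, quantile normalization, no block, leaving out each animal and leaving out V1. Others were a covariate of the polyadenylated spike-in controls and areas split by the spread of the Cre spike-in controls. The next probe set and leaving out V1 were chosen after seeing the data. Amplification was done in 3 batches, per the series' design text; which array belongs to which batch is not given in the sources used here, so batch and region cannot be told apart. Coordinates and sequences were not used here.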

Additional observations from a re-analysis of the deposited data

Results flagged for a closer look

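In 118 sets of 4 animals for members and regions named above, 6 had an animal far from the other 3, about as many as 1 set in 20 would give by chance. KIF27 in CA2 was 8.55 in male A and 9.17 to 9.19 in the others. KIF3C in CA1 was 10.68 in female D against 10.95 to 10.98, and in CA3 it was 11.11 in female E against 10.83 to 10.87. The other 3 were all V1 arrays of female D: KIF17 in layer 3 at 5.90 against 6.58 to 6.63, STMN2 in layer 4Cb at 11.60 against 11.33 to 11.34, and DYNLRB2 in layer 4B at 7.36 against 6.79 to 6.83.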

How the results depend on the processing

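Of 126 member differences named in the contrasts, 85 kept their direction and their call under every alternative run, and 10 turned under at least 1. Of the 66 that had a next probe set, 42 were called the same way on it, 15 kept their direction without a call and 9 turned: TUBGCP2 in layer 2 (-0.0774) and in LGN against neocortex (0.10), KIF5B in V1 (-0.0089) and in DG (-0.51), STMN3 in ACG (-0.28) and in LGN against neocortex (-0.41), KIF1B in DG (-0.347), KIF5C in hippocampus against neocortex (0.25) and KIF2A in LGN against neocortex (-0.0908). With the mean of all probe sets STMN3 turned in ACG (-0.0107) and in LGN against neocortex (-0.0384), and KIF5B in DG (-0.13). TUBGCP4, the remaining one of the 10, turned in LGN against the neocortical areas with widely spread Cre controls (0.0112). It had only 1 probe set, so no next one could be read. DYNC2I1 in layer 5, which is not among the 126, was lower there and turned with the mean of all probe sets (0.0072).

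Counts of members called over layers moved from 37 to 24 in the areas with widely spread Cre controls. Counts over areas moved from 35 to 22 and 4 in those with narrow and wide spread, which hold fewer areas. With the covariate of polyadenylated controls the V1 count moved from 20 to 11 and the visual against frontal count from 18 to 7. The shares of all genes called with it were not counted. Without the replicate block, that is without the pairing by animal, the M1 count moved from 6 to 2, as it did in the narrow set (2), and no other count moved by more than 1.5 times. Over the LGN divisions 1 member was called with the mean of all probe sets and 2 with quantile normalization, in place of 0, and for the koniocellular division 1 and 1. Leaving out 1 animal gave 10 to 13 in layer 3 (16 with all), 9 to 15 in layer 4 (17), 10 to 16 in ACG (16), 2 to 6 in M1 (6), 8 to 9 over V1 layers (16) and 0 to 1 over LGN divisions (0); DG (22 to 25, 26 with all) and LGN against neocortex (25 to 31, 33 with all) stayed within 1.5 times. The cause of these shifts was not tested. Quantile normalization shifted the median of all genes by under 0.1 in each contrast. Members near the threshold, such as DYNC1I2, had means close to the median of all probe sets. Whether low signal compressed their differences was not tested.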

Other observations

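Related genes of the transport machinery also differed between cortical layers. In layer 2, DCLK1, a microtubule-binding kinase of neurons, was lower by -1.08 ± 0.06 (log2; adjusted p by limma = 2.68e-11) and its relative DCLK2 higher by 0.56 ± 0.05, and 5 of 9 microtubule-associated proteins were higher and 1 lower, against 24.2% and 20.6% of all genes. The dynein adaptors HOOK1 (0.62 ± 0.04) and BICDL1 (-0.61 ± 0.06) differed in opposite directions, TRAK2, the mitochondrial adaptor, was higher (0.59 ± 0.05), and SVBP, the partner of the enzymes that remove tyrosine from tubulin, was higher (0.56 ± 0.05) while VASH1, such an enzyme, was lower (-0.34 ± 0.05). In deep against upper layers DCLK1 was higher (0.67 ± 0.04), VASH1 higher (0.44 ± 0.03), SVBP lower (-0.45 ± 0.05) and HOOK1 lower (-0.40 ± 0.04), in a comparison that shares its layer 2 samples with the one before. In V1 against other areas TRAK2 was lower by -0.85 ± 0.08 and the dynactin gene ACTR1B higher by 0.40 ± 0.07.

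Over the 57 group means, DYNC1I2 followed SVBP (r = 0.86), TUBGCP4 followed TUBGCP2 (r = 0.73) and KIF27 ran against STMN4 (r = -0.68). These are descriptions over points that share animals, with no test.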
